A study of Mus musculus with 8 samples.

Results

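Total RNA of mouse embryonic neural tissue lacking both Lin28 genes was compared with that of wildtype tissue across the whole transcriptome. All genes of the total RNA count table with adequate counts were taken, which gave 14594 of 24420 listed symbols. The comparison used 4 of the 8 libraries of the series, 2 of wildtype (WT) and 2 of double knockout (dKO) embryos, and the other 4 libraries are of polysomal RNA. WT embryos were called wildtype or control, and dKO embryos were Lin28a-/-;b-/-, both at E11.5. The labels name the tissue as brain, while the growth protocol speaks of neural tube. They give no strain, do not say how the alleles were made, and are silent on whether replicates were different embryos. The p-values therefore reflect the spread of these samples alone, and part of it may be technical. In whole tissue, fewer cells of a type and less RNA per cell cannot be told apart.

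Lin28a and Lin28b are RNA-binding proteins of embryonic and progenitor cells. They bind the precursors of let-7 microRNAs and block their maturation, and they also bind many messenger RNAs. Mature let-7 pairs through its seed with sites in 3' untranslated regions (3' UTRs) and lowers the stability and translation of those transcripts. In the early neural tube, progenitors are expanding and the first neurons are leaving the cycle.

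The let-7 family is shown first because its seed defines the matches counted in the transcripts described here. All 11 let-7 family entries of the RefSeq table (GRCm38.p6), with 9 different mature names, shared the seed GAGGUAG at bases 2 to 8, printed in capitals.
let-7a-5p: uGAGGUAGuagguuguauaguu
let-7b-5p: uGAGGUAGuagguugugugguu
let-7d-5p: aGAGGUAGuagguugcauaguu
let-7g-5p: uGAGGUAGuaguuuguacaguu
let-7i-5p: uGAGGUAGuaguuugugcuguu
miR-98-5p: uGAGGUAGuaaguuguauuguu
The members printed share the seed and differ elsewhere.

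The matches searched on the transcript strand of the longest annotated 3' UTR of each gene (GENCODE M21, GRCm38) were CTACCTC, the complement of the seed, and CTACCTCA, which adds an A. The matches printed next belong to the 6 genes with the most matches among the largest changes of the comparison, which include both targeted genes, and capitals mark the match.
Hmga2: acattcaatttCTACCTCAg
Fignl2 first: ggctgcagcacCTACCTCAc
Fignl2 second: gtaacccatttCTACCTCAt
Fignl2 last: ttgtggcctgtCTACCTCAg
Igdcc3 first: actctcagcacCTACCTCAg
Igdcc3 second: cgaaagcactcCTACCTCAa
Lin28a first: agcctgttgaaCTACCTCAt
Lin28a second: tcgccacaaacCTACCTCAc
Lin28b: gggcgggaagtCTACCTCAt
Pctp: aatagctgcctCTACCTCtc
All lie in 3' UTR sequence. The Hmga2 match is at chr10:120364224-120364231 on the minus strand, bases 61 to 68 of the 3' UTR, and 3 further 7-base matches follow it. The Fignl2 matches are at chr15:101050489-101050496, chr15:101050327-101050334 and chr15:101050252-101050259 on the minus strand. Those of Igdcc3 are at chr9:65185722-65185729 and chr9:65185802-65185809 on the plus strand. Those of Lin28a are at chr4:134005189-134005196 and chr4:134004551-134004558, the 8-base match of Lin28b is at chr10:45381022-45381029, and the first of Pctp is at chr11:89984031-89984037, all on the minus strand. Lin28b has 3 further 7-base matches and Pctp has 1, at chr11:89983676-89983682. A match is a description of the sequence and not a shown site of binding.

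The targeted genes checked the labels. Levels are given in CPM, the read count scaled to library size. Lin28a was at 73.3 and 72.2 CPM in WT and at 6.55 and 7.73 CPM in dKO. Lin28b was at 128.3 and 122.6 CPM in WT and at 48.0 and 55.1 CPM in dKO. Both groups were separate for each gene, while the source exons of the reads left in dKO are unknown from a count per gene.

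Libraries held between 15060560 and 15768767 counts, with a biological coefficient of variation of 0.0504. The neural progenitor gene Sox2 was at 271 to 309 CPM and the neuronal tubulin gene Tubb3 at 678 to 782 CPM over the 4 libraries. Markers of other cells were also present. Of 10 tested red blood cell markers 8 fell and none rose, with a summed level of 4563 and 4639 CPM in WT and 2838 and 2830 CPM in dKO, and 4 of the 14 listed were at 0 in all libraries. Of 23 mesenchyme and somite markers 8 fell and none rose, with sums of 704 and 680 CPM in WT and 582 and 588 CPM in dKO, and 1 rose without WT replicate 1. The Y-linked genes Ddx3y and Kdm5d rose by 0.53 ± 0.11 and 0.42 ± 0.12 on the log2 scale and Xist fell by 0.61 ± 0.05, so the genotypes differed in their mix of sexes by these genes. The call of Kdm5d was lost without WT replicate 1, at 0.35. The part of these differences in the results below was not tested.

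The comparison asks which transcripts differ in abundance in the absence of both Lin28 proteins. At an adjusted p of 0.05 (edgeR quasi-likelihood test with Benjamini-Hochberg adjustment), 4485 genes were called, 30.7% of those tested, with 2152 higher (14.7%) and 2333 lower (16%) in dKO. A log2 fold change of at least 1 was reached by 133 higher and 93 lower genes, 0.911% and 0.637% of the genes tested and 1.55% together. The libraries of the genotypes did not overlap for 62.3% of all genes. The rule for the 25 largest rises and falls and the 10 largest changes in CPM requires such separation. For genes named by that rule, statements below that the groups were separate describe the choice and add no support. For other named genes such statements are to be read beside the 62.3% over all genes, and also add no support to the call. Calls depended on the level: 60.1% of 2590 genes averaging 100 CPM or more were called, with a median absolute log2 fold change of 0.23, against 7.64% of 2290 genes from 1 to 5 CPM, where that median was 1.12. A count of calls in a group of highly expressed genes is therefore to be read beside the level of its members. The counts of list members below are also to be read beside the 14.7% higher and 16% lower over all genes tested. No list was set against genes of like level.

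**Figure D1:**
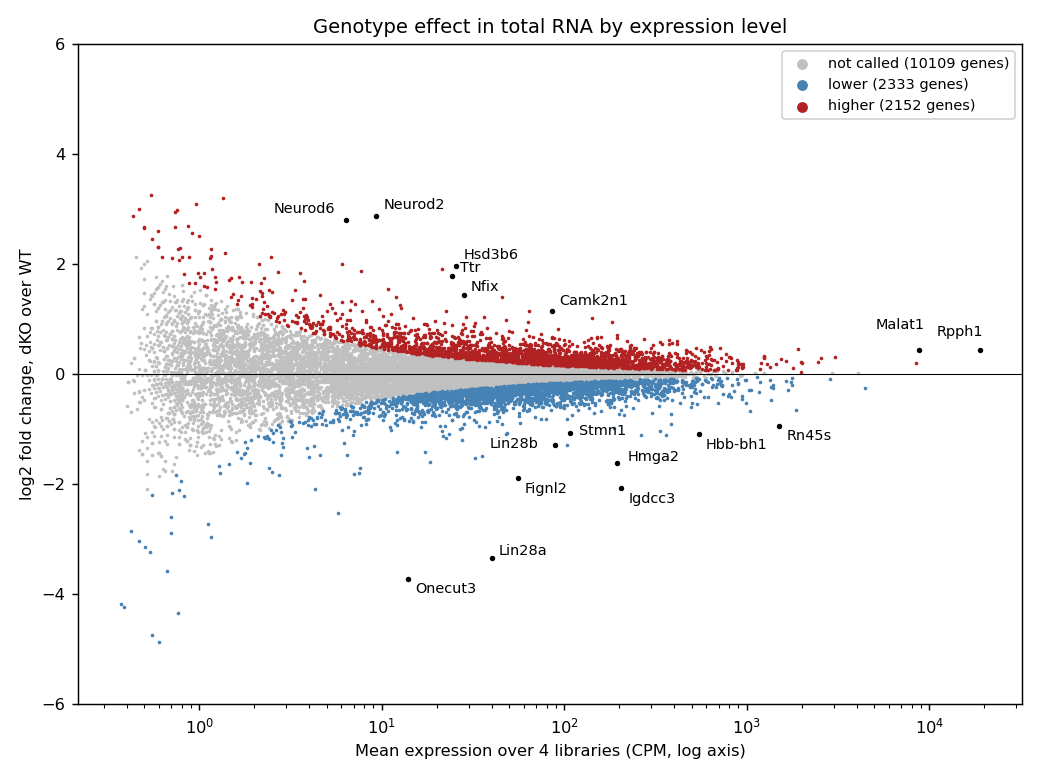
Each point is 1 of 14594 genes, with the mean level over the 4 libraries (CPM, log axis) against the log2 fold change of dKO over WT. Red points are the 2152 genes called higher and blue points the 2333 called lower, and called changes are small at high levels, as for Malat1 and Rpph1 at 0.43 each.

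Among the largest falls were transcripts with several let-7 seed matches. Igdcc3, an immunoglobulin superfamily protein of the cell membrane, was at 327 and 335 CPM in WT and at 76.2 and 80.9 CPM in dKO, a log2 fold change of -2.08 ± 0.05 (SE). Fignl2, a fidgetin-like ATPase, was at 89.6 and 85.6 CPM in WT and at 23.0 and 24.1 CPM in dKO, a change of -1.89 ± 0.09. The groups lay far apart for both genes. Hmga2, a chromatin protein of embryonic progenitors, was at 285 and 298 CPM in WT and at 93.5 and 97.2 CPM in dKO (-1.61 ± 0.05). Pctp, a phosphatidylcholine transfer protein, was at 32.7 and 29.5 CPM in WT and at 13.2 and 14.6 CPM in dKO (-1.16 ± 0.13, adjusted p = 1.98e-17, edgeR). By the rule for named genes, 11 of the 25 largest falls held a 7-base match and 7 an 8-base match. Of the 25 largest rises 2 held a 7-base match and 0 an 8-base match. The targeted genes Lin28a and Lin28b are among the 11 and among the 7.

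Over the 13704 tested genes with an annotated 3' UTR, 10.7% held the 7-base match and 3.80% the 8-base match. Of the 12233 genes without a 7-base match 16.3% were called lower and 15.1% higher. Of the 1471 genes with at least 1, 20.7% were called lower and 13.3% higher. With the 8-base match the values were 23.8% lower and 10.9% higher over 521 genes. Of 26 genes with at least 2 of the 8-base matches 13 fell and none rose, with a median log2 fold change of -0.35, beside a median of 0.00 over all genes tested. Of the 7 genes with at least 3, 6 fell and none rose. Of 28 genes with at least 3 of the 7-base matches 12 fell and 7 rose, a share of 25% higher that was above the 15.1% of genes without a match. Of the targeted genes, Lin28a is among the 26 genes, and Lin28b is among the 28 with at least 3 of the 7-base matches. Both are among the 521 with at least 1 of the 8-base matches.

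The 3' UTR length ran alongside these shares. Among genes with no 8-base match, the share called higher was 7.77%, 11.9%, 16.0% and 25.1% from the shortest to the longest of 4 equal groups by 3' UTR length. The share called lower in the same groups was 19.8%, 18.3%, 16.4% and 11.3%. Genes with an 8-base match were called lower in 34.6%, 22.2%, 24.5% and 22.9% of cases, above the genes without one in each of the 4 groups, and the first of these shares rests on 26 genes. With an adjustment for 3' UTR length, chosen after seeing the data, 2002 genes were higher and 2291 lower. Of the 4485 called genes 3899 were shared with that fit, all in the same direction.

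**Figure D2:**
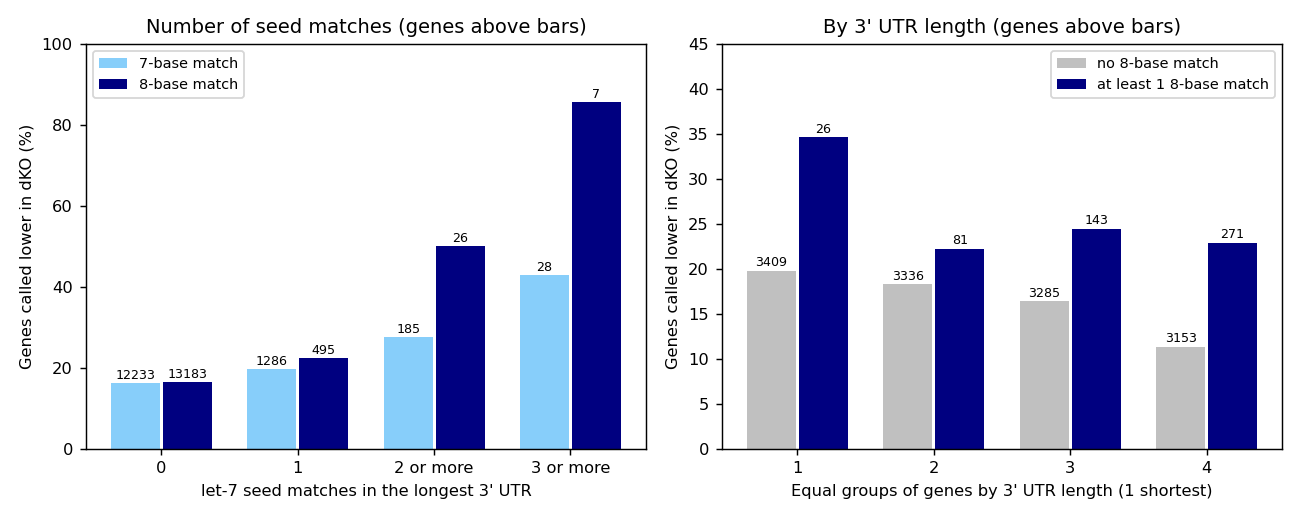
The left panel gives the percent of genes called lower in dKO by number of 7-base (light) or 8-base (dark) let-7 matches in the longest 3' UTR, with the number of genes above each bar. The right panel gives the percent called lower by 3' UTR length in 4 equal groups for genes without (grey) and with (dark) an 8-base match, and the dark bars, at 22.2% to 34.6%, are above the grey bars at 11.3% to 19.8%.

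All 3 Onecut genes, homeobox transcription factors of early-born neurons, fell. Onecut3 was at 29.0 and 22.6 CPM in WT and at 2.48 and 1.42 CPM in dKO, the largest fall among genes averaging 5 CPM or more (-3.72 ± 0.20). Onecut2 was at 489 and 499 CPM in WT and at 226 and 234 CPM in dKO (-1.10 ± 0.04). Onecut1 was at 32.4 and 31.2 CPM in WT and at 13.2 and 16.7 CPM in dKO (-1.09 ± 0.13, adjusted p = 5.86e-16, edgeR). The groups did not overlap for any of the 3, which the rule for the largest changes requires. Onecut2 and Onecut3 each held 1 8-base match.

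Several other transcription factors of progenitors fell. Nr6a1, an orphan nuclear receptor of early embryos, was at 35.6 CPM in both WT libraries and at 15.7 and 19.8 CPM in dKO (-1.004 ± 0.12). Zbtb16, a zinc finger factor that maintains progenitors, was at 68.8 and 62.9 CPM in WT and at 32.3 and 30.4 CPM in dKO (-1.07 ± 0.09). For both genes the 2 dKO libraries lay below the 2 WT libraries. Sox3 fell by 0.90 ± 0.08. Nkx1-2, a homeobox gene of the caudal neural plate, was at 7.20 and 6.75 CPM in WT and at 1.65 and 1.61 CPM in dKO (-2.09 ± 0.32). Of the 3 Arid3 genes, which encode DNA-binding proteins of the ARID family, Arid3b fell by 1.48 ± 0.11 and Arid3a by 0.78 ± 0.10. Arid3c had counts of 20 and 25 in WT against 1 in each dKO library.

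Other RNA-binding proteins of embryonic tissue fell as well. Igf2bp1, which stabilises target messages, was at 457 and 445 CPM in WT and at 221 CPM in both dKO libraries (-1.03 ± 0.04). Igf2bp2 was at 250 and 245 CPM in WT and at 127 and 124 CPM in dKO (-0.98 ± 0.05). Igf2bp3 fell less, from 202 and 196 CPM to 144 and 143 CPM (-0.47 ± 0.05). The WT and dKO libraries were separate for all 3. Trim71, a ubiquitin ligase and RNA-binding protein of early progenitors, fell by 1.03 ± 0.13. Dicer1, the nuclease that cuts microRNA precursors, was at 255 and 246 CPM in WT and at 160 and 157 CPM in dKO (-0.66 ± 0.05), and its partner Tarbp2 fell by 0.74 ± 0.14. Of 30 tested genes of microRNA processing and silencing 10 fell and 4 rose, with a median of -0.05. Of 52 developmental RNA-binding protein genes 12 fell and 19 rose, with a median of 0.10. Those that rose included Rbfox3, a splicing factor of maturing neurons (0.58 ± 0.12), and Celf5 (0.52 ± 0.07).

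Genes that handle retinoic acid, the vitamin A derivative that patterns the hindbrain and spinal cord, were among the falls. Crabp2, a retinoic acid carrier, was at 356 and 366 CPM in WT and at 164 and 172 CPM in dKO (-1.10 ± 0.04). Crabp1 was at 503 and 495 CPM in WT and at 274 and 257 CPM in dKO (-0.91 ± 0.03). Both dKO libraries were well below both WT libraries for each carrier. Of 20 tested retinoic acid genes 4 fell (20%) and 1 rose (5%), with a median of -0.02. Over all genes tested 16% were lower and 14.7% higher. The gene that rose was Ncor1, a corepressor (0.10), whose call was lost when any single library was left out.

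**Figure D3:**
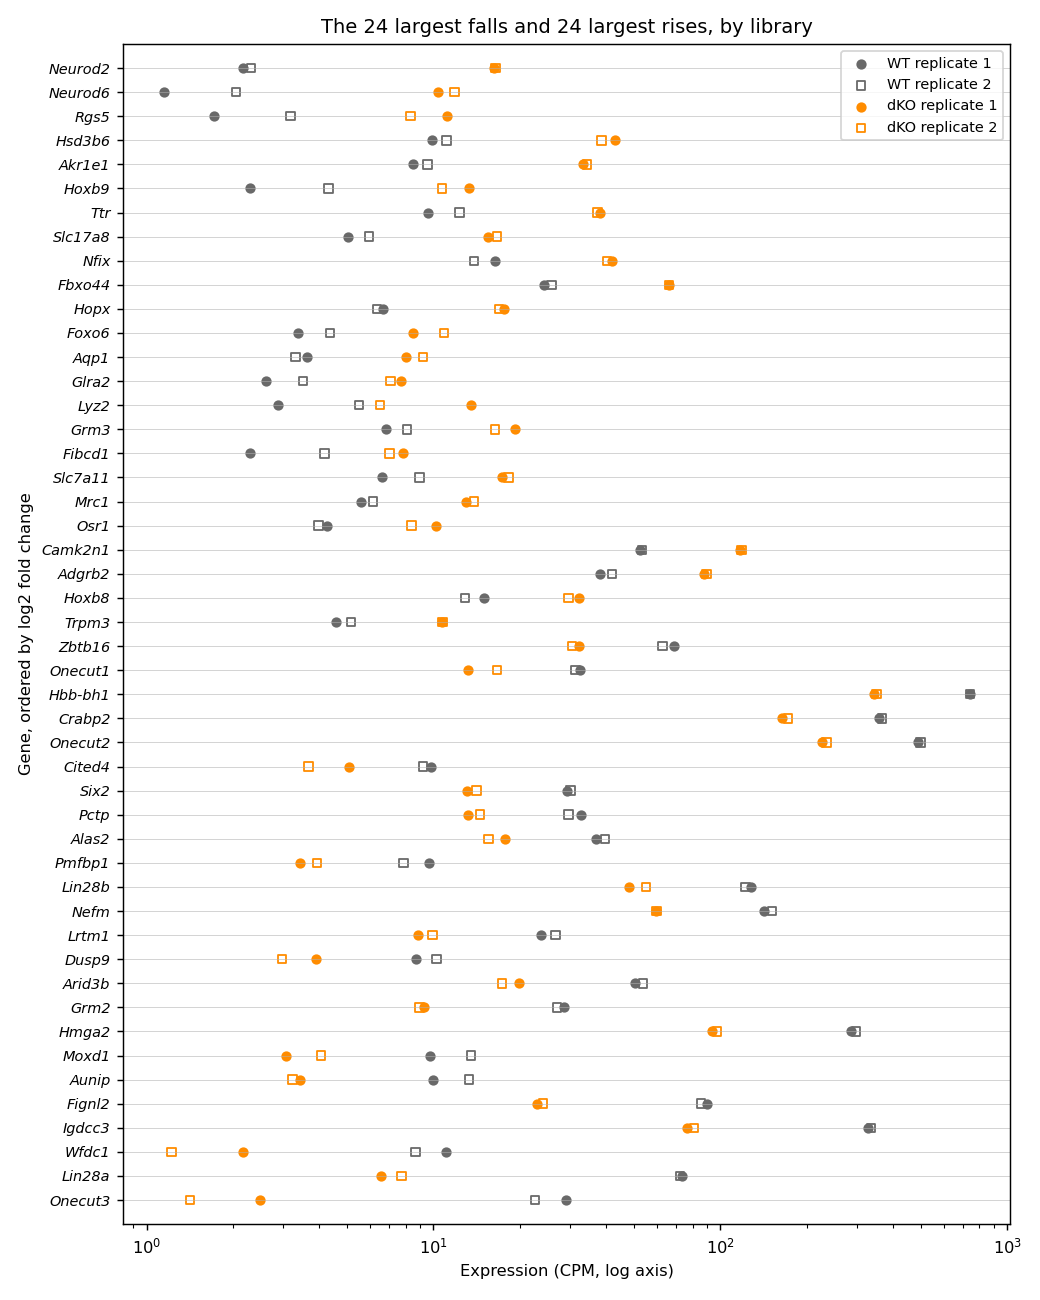
Expression in each library (CPM, log axis) of the 24 largest rises and 24 largest falls by the rule for named genes, ordered by log2 fold change, with WT in grey and dKO in orange. The libraries of the genotypes do not overlap for any gene, which the rule requires, and the separation ranges from Onecut3 at the bottom to Neurod2 at the top.

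Transcription factors of later neural development were among the rises. Neurod2, a factor of differentiating neurons, was at 2.17 and 2.32 CPM in WT and at 16.3 and 16.4 CPM in dKO (2.86 ± 0.22). All 4 nuclear factor I genes, which act in the switch of progenitors towards glia, rose. Nfix was at 16.4 and 13.8 CPM in WT and at 41.8 and 40.3 CPM in dKO (1.44 ± 0.12), and Nfia at 91.7 and 95.6 CPM in WT and at 192 and 187 CPM in dKO (1.02 ± 0.05). The groups were separate for both. Nfib and Nfic, named after their values were seen to complete the family, rose by 0.94 and 0.69. Of 35 genes of the nuclear factor I family and other temporal factors 19 rose and 10 fell, with a median of 0.30; Lin28a, Lin28b and Hmga2 are in that list.

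Some genes of radial glia and later glia rose too. Hopx, a homeodomain protein of radial glia, was at 6.69 and 6.35 CPM in WT and at 17.6 and 16.9 CPM in dKO (1.41 ± 0.18, adjusted p = 7.50e-14, edgeR). Luzp2, a leucine zipper protein, rose by 1.06 ± 0.19. Of 38 tested radial glia and gliogenic genes 15 rose and 9 fell, with a median of 0.06. Without dKO replicate 1 the falls were 5. Foxo6, a forkhead factor of neurons, was at 3.38 and 4.37 CPM in WT and at 8.46 and 10.9 CPM in dKO (1.32 ± 0.24). Foxj1, a master regulator of motile cilia, rose by 0.75 ± 0.14.

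Most lists of neuronal receptors and channels held more rises than falls. Of 246 tested genes in 8 lists of excitability and the synapse 67 rose and 15 fell, with a median log2 fold change of 0.22. Over all genes tested 14.7% were higher and 16% lower. The median 3' UTR was 2154 bases for sodium and calcium channel genes and 2267 for glutamate receptor genes. It was 505 for neuropeptide genes and 1252.5 over all genes with one. With the adjustment for 3' UTR length 8 sodium and calcium channel genes and 5 glutamate receptor genes rose. Of 14 GABA-A and glycine receptor genes, which carry inhibitory currents, 8 rose and 1 fell, with a median of 0.44. The number of rises was 5 without WT replicate 1 or dKO replicate 1, and DESeq2 called 5. Glra2, the embryonic glycine receptor subunit, was at 2.61 and 3.51 CPM in WT and at 7.70 and 7.09 CPM in dKO (1.27 ± 0.27). Both dKO libraries were above both WT libraries. The subunit that fell, Gabrp, had counts of 19 and 17 in WT against 1 and 0 in dKO. Of 9 cholinergic receptor genes none rose and 2 fell, with a median of -0.06, and the falls were 1 without WT replicate 1 or dKO replicate 2 and 0 without WT replicate 2 or dKO replicate 1.

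Of 25 glutamate receptor genes 7 rose and 2 fell, with a median of 0.13, and DESeq2 called 4 rises. The falls were 1 without WT replicate 2 or dKO replicate 1. Grm3, a metabotropic receptor, was at 6.81 and 8.07 CPM in WT and at 19.3 and 16.4 CPM in dKO (1.26 ± 0.17). The related Grm2 moved the other way, from 28.6 and 26.9 CPM in WT to 9.29 and 8.96 CPM in dKO (-1.60 ± 0.15). The libraries of the genotypes were separate for both. Grin2b, an NMDA receptor subunit, rose by 1.37 ± 0.33 from 1.53 and 2.58 CPM.

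Of 71 potassium channel genes 16 rose and 3 fell, with a median of 0.32. The rises were 10 without dKO replicate 1 and 9 without dKO replicate 2, and DESeq2 called 7. None of the 3 falls was called without WT replicate 1 or dKO replicate 1, nor by DESeq2, and 1 was without dKO replicate 2. Kcnn3, a calcium-activated channel, was at 4.20 and 4.43 CPM in WT and at 8.08 and 9.08 CPM in dKO (0.99 ± 0.24). Of 32 sodium and calcium channel genes 10 rose and 1 fell, with a median of 0.23, and 6 rose without dKO replicate 1. The fall was lost without WT replicate 1 or dKO replicate 2. Cacna2d1, a calcium channel subunit, was at 71.8 and 74.4 CPM in WT and at 101 and 114 CPM in dKO (0.56 ± 0.07).

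Of 50 genes of synaptic vesicles and release 16 rose and 4 fell, with a median of 0.16. Without dKO replicate 1 there were 9 rises, and DESeq2 called 9. With any single library left out the falls were 1 or 2. Rab3c, a vesicle GTPase, was at 147 and 157 CPM in WT and at 236 and 241 CPM in dKO (0.65 ± 0.05). Cplx2, a complexin that controls fusion, was at 179 and 168 CPM in WT and at 267 and 263 CPM in dKO (0.61 ± 0.04). Camk2n1, an inhibitor of CaM kinase II, was at 52.7 and 53.3 CPM in WT and at 118 CPM in both dKO libraries (1.15 ± 0.07). For these 3 genes the genotypes were far apart. Adgrb2, an adhesion receptor of the brain, was at 38.2 and 42.0 CPM in WT and at 87.6 and 89.5 CPM in dKO (1.15 ± 0.08). Of 67 adhesion and orphan G protein-coupled receptors 15 rose and 3 fell, with a median of 0.21. Without WT replicate 1 there were 9 rises, and DESeq2 called 8.

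Neuron classes moved in both directions. Of 45 genes of spinal and hindbrain interneurons 17 rose and 1 fell, with a median of 0.20. Without WT replicate 2 or dKO replicate 1 the rises were 11. The fall, that of Dbx2, was lost when any single library was left out. Gad1 and Gad2, which make GABA, rose by 0.91 ± 0.15 and 0.73 ± 0.07. Of 24 motor neuron genes 2 rose and 7 fell, with a median of -0.12. Isl2, a LIM homeobox factor of motor neurons, was at 6.11 and 6.02 CPM in WT and at 1.91 and 2.96 CPM in dKO (-1.31 ± 0.30). Phox2a, a factor of cranial motor and noradrenergic neurons, was at 7.45 and 8.67 CPM in WT and at 4.52 and 3.48 CPM in dKO (-1.01 ± 0.25), and Ret, a receptor of neurotrophic ligands, fell by 0.80 ± 0.17. The genotypes did not overlap for these 3 genes. Dbh, the enzyme that makes noradrenaline, had counts of 25 and 38 in WT against 2 and 6 in dKO. Of 22 tested monoaminergic neuron genes 5 fell, 1 rose and 16 were not called, with a median of -0.18. The gene that rose was Slc6a4, by 1.27, and by 1.03 without dKO replicate 1. Its call was lost with limma-voom, with the replicate block and when any single library was left out.

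Genes of the choroid plexus, the epithelium that secretes cerebrospinal fluid, held some of the largest rises. Ttr, a thyroid hormone carrier, was at 9.55 and 12.3 CPM in WT and at 38.2 and 37.4 CPM in dKO (1.79 ± 0.13). Aqp1, a water channel, was at 3.63 and 3.31 CPM in WT and at 8.02 and 9.21 CPM in dKO (1.31 ± 0.25). Trpm3, an ion channel, was at 4.59 and 5.16 CPM in WT and at 10.8 CPM in both dKO libraries (1.14 ± 0.22). All dKO libraries were above all WT libraries for the 3. Of 29 tested choroid plexus and roof plate genes 6 rose and 2 fell, with a median of 0.18. Car14 fell by 0.93, so the list did not move as one.

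Nonneural genes were also among the largest rises. Rgs5, a pericyte regulator of G protein signalling, was at 1.72 and 3.18 CPM in WT and at 11.1 and 8.31 CPM in dKO (1.99 ± 0.26). Mrc1, a macrophage mannose receptor, was at 5.60 and 6.15 CPM in WT and at 13.0 and 13.9 CPM in dKO (1.19 ± 0.19). C1qa, a macrophage complement gene, fell by 1.26 ± 0.38, a call lost without WT replicate 2 or dKO replicate 1. Of 16 tested macrophage markers 2 rose and 2 fell (1 fall with any single library left out), with summed levels of 69.6 and 74.9 CPM in WT and 86.7 and 69.6 CPM in dKO. Lyz2 rose by 1.27 ± 0.23, and was at 0.64 with no call without dKO replicate 1. Of 23 endothelial and pericyte markers 5 rose and 2 fell, and DESeq2 called 1 rise. The rises were 2 without WT replicate 1, 1 without dKO replicate 1 and 3 without dKO replicate 2. Their summed level was 381 and 392 CPM in WT and 393 and 391 CPM in dKO. None of the 7 tested surface epithelium markers was called.

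Zinc finger genes were the largest transcription factor list. Of 342 Zfp genes 57 rose (16.7%) and 22 fell (6.43%), with a median of 0.08, and DESeq2 called 37 rises. Over all genes tested 14.7% were higher and 16% lower. Members with near-identical copies have uncertain counts. Of 35 nuclear receptor genes 7 rose and 2 fell, with a median of 0.18. Thra, the thyroid hormone receptor alpha, was at 110 and 108 CPM in WT and at 171 and 172 CPM in dKO (0.65 ± 0.05). Nr3c1, the glucocorticoid receptor, rose by 0.75 ± 0.13 and Nr1d1, a clock repressor, by 0.90 ± 0.14. Of 41 basic helix-loop-helix genes 12 rose and 4 fell, and the falls were 2 without dKO replicate 1. Of 74 homeobox genes of the Pax, Irx, Nkx, Onecut and related families 13 rose and 15 fell, and without dKO replicate 1 or dKO replicate 2 the rises were 8.

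**Figure D4:**
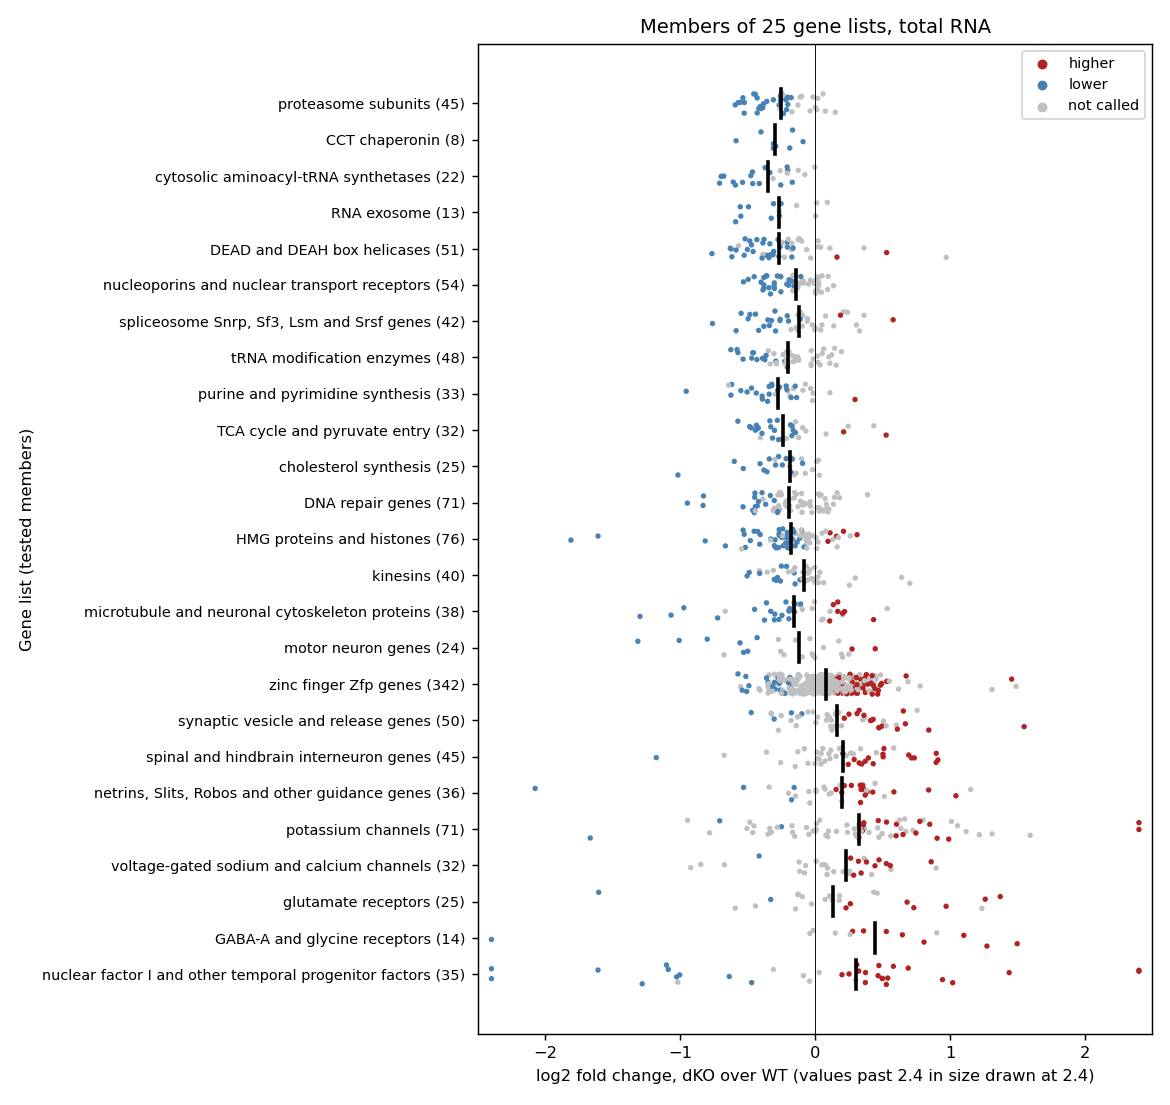
Each point is a tested member of 1 of 25 lists picked by hand from the 84. It shows the log2 fold change of dKO over WT, coloured by call, with a black bar at the list median. Lists with equal rises and falls, such as Polycomb and autophagy genes, are not drawn. The lists are drawn with those of RNA processing, protein turnover and metabolism at the top, with medians below 0, and those of receptors, channels and temporal factors at the bottom, with medians above 0.

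Genes that handle RNA and charge tRNA fell in large shares. Of 354 tested genes in 10 such lists 147 fell and 26 rose, with a median of -0.16. Over all genes tested 16% were lower and 14.7% higher. Cytosolic aminoacyl-tRNA synthetases load tRNAs with amino acids. Of 22 genes in their list, which also holds the partner genes Aimp1 and Aimp2, 16 fell and none rose, with a median of -0.35. Their median 3' UTR was short, at 254 bases, and 14 fell with the adjustment for 3' UTR length. Vars was at 184 and 178 CPM in WT and at 111 and 110 CPM in dKO (-0.71 ± 0.05), and Yars fell by 0.68 ± 0.10. Of 17 mitochondrial synthetase genes 5 fell and none rose, led by Aars2 (17.1 and 21.3 CPM in WT, 10.2 and 10.6 CPM in dKO, -0.88 ± 0.16). Of 48 tRNA modification genes 14 fell and none rose, and 8 fell without dKO replicate 1 or dKO replicate 2. DESeq2 called 9. Nsun2, a cytosine methyltransferase of tRNA, was at 118 and 122.7 CPM in WT and at 83.3 and 72.7 CPM in dKO (-0.63 ± 0.06).

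Genes of helicases, the exosome and the splicing machinery also fell more often than they rose. Of 51 DEAD and DEAH box helicase genes 30 fell and 2 rose, with a median of -0.27. The rises were Ddx3y and Ddx6. Ddx27, a nucleolar helicase, was at 24.5 and 24.7 CPM in WT and at 14.8 and 14.2 CPM in dKO (-0.77 ± 0.14). Of 13 RNA exosome genes 8 fell and none rose, with a median of -0.27, and 4 fell without WT replicate 1 and 5 without dKO replicate 2. Of 54 nucleoporins and nuclear transport receptors 25 fell and none rose, with a median of -0.15. Rangap1, which activates the Ran GTPase, was at 175 and 176 CPM in WT and at 122.9 and 119 CPM in dKO (-0.53 ± 0.05). Of 42 spliceosome genes 18 fell and 2 rose, with 1 rise without WT replicate 2, dKO replicate 1 or dKO replicate 2, and Sf3a3 fell by 0.76 ± 0.12. Of 28 RNA polymerase subunits 10 fell and none rose, and 6 fell without WT replicate 2.

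Genes of protein folding and the proteasome fell more often than they rose. Of 285 tested genes in 7 lists of protein folding and turnover 85 fell and 25 rose, with a median of -0.10. Over all genes tested 16% were lower and 14.7% higher. Of 45 tested proteasome subunit and assembly genes 31 fell and none rose, with a median of -0.25. Their median 3' UTR was 273 bases, and 29 fell with the adjustment for 3' UTR length. Psmd2, of the regulatory cap, was at 151 and 153 CPM in WT and at 105 and 102 CPM in dKO (-0.55 ± 0.06). Psmd3, of the same cap, was at 112 and 115 CPM in WT and at 71.8 and 78.5 CPM in dKO (-0.59 ± 0.07). The genotypes were separate for both. All 8 tested subunits of the CCT chaperonin, which folds actin and tubulin, fell, with a median of -0.30. Their summed level was 3201 and 3149 CPM in WT and 2633 and 2679 CPM in dKO. Of all genes averaging 100 CPM or more 60.1% were called in either direction. Cct3 was at 264 and 262 CPM in WT and at 174 and 176 CPM in dKO (-0.59 ± 0.04, adjusted p = 2.31e-38, edgeR). Actb, a client of CCT encoding beta-actin, fell by 0.25 ± 0.01. Of 63 heat shock and DnaJ genes 17 fell and 1 rose, a rise lost without WT replicate 1, dKO replicate 1 or dKO replicate 2. Fbxo44, of the F-box family of ubiquitin ligase adaptors, was at 24.2 and 25.8 CPM in WT and at 66.4 and 66.3 CPM in dKO (1.41 ± 0.10). Its list of 67 genes had 9 rises and 10 falls, with 5 rises without dKO replicate 1. Of 37 autophagy genes 7 rose and 7 fell, with 2 rises and 1 fall without WT replicate 2 and 3 rises and 2 falls without dKO replicate 2. Of 17 subunits of the V-ATPase, the proton pump of lysosomes and vesicles, 4 rose and 3 fell, with 2 rises without WT replicate 2 and 1 fall without WT replicate 1 or dKO replicate 2.

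Metabolic genes fell more often than they rose. Of 340 tested genes in 10 lists of metabolism 106 fell and 38 rose, with a median of -0.14. Over all genes tested 16% were lower and 14.7% higher. Transporters were the exception: of 31 amino acid transporter genes 8 rose and 3 fell, with a median of 0.07, and of 42 mitochondrial carrier genes 7 rose and 5 fell. Of 33 genes of purine and pyrimidine synthesis 21 fell and 1 rose, with a median of -0.28. Atic, of purine synthesis, was at 50.3 and 46.5 CPM in WT and at 24.4 and 25.5 CPM in dKO (-0.96 ± 0.10). Rrm2, the ribonucleotide reductase subunit that makes DNA building blocks, was at 283 and 296 CPM in WT and at 183 and 193 CPM in dKO (-0.62 ± 0.04). The dKO libraries were below the WT libraries for both. Of 30 genes of the serine, glycine, folate and methionine cycles 10 fell and 1 rose, a rise lost without WT replicate 2, dKO replicate 1 or dKO replicate 2. Gldc, of glycine cleavage, fell by 0.65 ± 0.10. Of 32 genes of the TCA cycle and pyruvate entry 20 fell and 2 rose, with a median of -0.24, and both rises were lost without WT replicate 2 or dKO replicate 1 and 1 without dKO replicate 2. Of 25 cholesterol synthesis genes 15 fell and none rose, with a median of -0.19. Hmgcs1, an early enzyme of the pathway, was at 510 and 505 CPM in WT and at 348 and 353 CPM in dKO (-0.53 ± 0.03). Of 26 fatty acid oxidation genes 11 fell and 3 rose. The falls were fewer with any single library left out, and DESeq2 and the adjustment for 3' UTR length each called 3 falls.

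Some single metabolic genes rose. Hsd3b6, a steroid dehydrogenase, was at 9.87 and 11.1 CPM in WT and at 43.0 and 38.5 CPM in dKO (1.96 ± 0.13). Akr1e1, an aldo-keto reductase, was at 8.47 and 9.53 CPM in WT and at 33.2 and 34.3 CPM in dKO (1.91 ± 0.14). Slc7a11, the cystine transporter, was at 6.62 and 8.93 CPM in WT and at 17.4 and 18.3 CPM in dKO (1.20 ± 0.17). The libraries were separate for all 3. Ppargc1a, a coactivator of mitochondrial genes, rose by 0.79 ± 0.23.

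Of 300 tested genes in 6 lists of chromatin and DNA repair 98 fell and 34 rose, with a median of -0.09. Over all genes tested 16% were lower and 14.7% higher. The lists differed in their balance. Of 32 Polycomb genes 10 rose and 10 fell, with a median of 0.07, and of 17 DNA methylation genes 4 rose and 3 fell. Of 76 HMG protein and histone genes 41 fell and 5 rose, with a median of -0.18. The rises were 2 without dKO replicate 2. Histone genes are near-identical copies, so the split of reads among them is uncertain, and Hist1h2bp was at 18.9 and 3.04 CPM in WT and at 3.37 and 2.90 CPM in dKO, so that WT replicate 2 lay among the dKO libraries. Of 71 DNA repair genes 17 fell and none rose, and 2 rose without WT replicate 1. Lig1, the replicative ligase, was at 46.6 and 43.0 CPM in WT and at 23.7 and 22.7 CPM in dKO (-0.95 ± 0.11). Kdm1a, a histone demethylase, was at 142 and 135 CPM in WT and at 85.1 and 80.9 CPM in dKO (-0.74 ± 0.06). Actl6b, the neuron-specific subunit of the BAF remodeller, rose by 0.74 ± 0.16.

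Of 38 microtubule and neuronal cytoskeleton genes 20 fell and 7 rose, with a median of -0.16, and the rises were 4 without dKO replicate 2. Nefm, a neurofilament, was at 142 and 152 CPM in WT and at 59.4 and 60.0 CPM in dKO (-1.30 ± 0.06), and Nefl was at 486 and 472 CPM in WT and at 287 and 294 CPM in dKO (-0.72 ± 0.03). Stmn1, which takes microtubules apart, was at 144 and 149 CPM in WT and at 67.3 and 72.0 CPM in dKO (-1.07 ± 0.06). The genotypes were far apart for the 3. Of 40 kinesin genes 12 fell and none rose, with a median of -0.09.

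Signalling and adhesion lists held members of both directions. Of 34 FGF pathway genes 12 rose and 4 fell. The falls were 2 without WT replicate 2 or dKO replicate 2, and DESeq2 called 7 rises. Fgf15, a ligand of the early brain, was at 40.3 and 46.4 CPM in WT and at 89.0 and 78.3 CPM in dKO (0.95 ± 0.08). Dusp9, a MAP kinase phosphatase, fell by 1.47 ± 0.24. Of 54 Wnt ligands, receptors and modulators 14 rose and 6 fell, and Sfrp2, a secreted Wnt inhibitor, fell by 0.72 ± 0.05. Of 36 netrin, Slit, Robo and other guidance genes 15 rose and 4 fell, with a median of 0.20. The falls were 2 without WT replicate 2 or dKO replicate 2. Igdcc3 is a member of that list, and Ncam2, a neural adhesion molecule, rose from 8.85 and 8.01 CPM to 15.2 and 15.0 CPM (0.84 ± 0.17).

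The transcripts with the largest differences in CPM included noncoding RNAs. Malat1, a nuclear noncoding RNA, was at 7487 and 7539 CPM in WT and at 9997 and 10264 CPM in dKO (0.43 ± 0.01). Rpph1, the RNA of RNase P, was at 16409 and 15682 CPM in WT and at 21740 and 21621 CPM in dKO (0.43 ± 0.01). Rn45s, the ribosomal RNA precursor, was at 1960 and 2002 CPM in WT and at 1058 and 1009 CPM in dKO (-0.94 ± 0.02). Nnat, an imprinted neuronal membrane protein, rose by 0.46 ± 0.02. The dKO libraries were on 1 side of the WT libraries for each.

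The loci of the targeted genes had called neighbours. Within 1 Mb of Lin28a, 10 of 35 tested genes were called, 28.6%, beside 30.7% of all genes. Stmn1 and Aunip, whose product binds Aurora A, lie 449 kb and 492 kb from Lin28a. Aunip was at 9.94 and 13.3 CPM in WT and at 3.44 and 3.22 CPM in dKO (-1.80 ± 0.23), so both falls of at least 1 near Lin28a are in that stretch. Within 1 Mb of Lin28b 2 of 4 tested genes were called, 50%, and within 5 Mb the share was 23.5% of 34 genes. These were Bves, a cell adhesion gene that rose by 0.72 ± 0.26, and Prep, a peptidase gene that fell by 0.28 ± 0.09. The call of Bves was lost without WT replicate 2 or dKO replicate 1, and that of Prep without WT replicate 1 or dKO replicate 2.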

How the data were processed

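Total RNA of 2 WT and 2 dKO samples was used, and the polysomal table was not analysed here. The authors deposited raw read counts, 1 whole number per symbol and library. The submitters' processing notes name the tools FastQC, TopHat and HTSeq. They name GRCm38, mm10 and mm9 as builds, with no versions or roles. Per the labels' protocols the libraries were strand-specific. Neither the annotation nor the strand setting of the counting is given in the sources used here, so overlapping genes cannot be told apart. Of the 24420 symbols 5815 were at 0 in every library and 27 had been turned into dates. Symbols were matched to GENCODE M21 (GRCm38), 23349 by symbol, 650 by an older symbol and 421 not at all.

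Genes were tested with edgeR 4.0.16 in R 4.3.3 (filterByExpr, TMM scaling, quasi-likelihood F test, Benjamini-Hochberg adjustment over all 14594 genes, threshold 0.05). SE was the size of the log2 fold change over the root of F. The 84 lists and the members were chosen with earlier results of these data known. Named genes were Lin28a and Lin28b, the 25 largest rises and falls among called genes that averaged 5 CPM or more and did not overlap between genotypes, without predicted genes and pseudogenes, the 10 largest rises and falls in CPM, up to 5 called members of each list with the largest change, called genes within 1 Mb of the targeted genes and the 6 genes with the most let-7 matches. Those printed are a part of the 419 so named, and some items are not reported here. A few further genes were named after their values were seen. Alternatives were RLE and upper-quartile scaling, no filter, a mean of at least 5 CPM, DESeq2 1.42.0, limma-voom (limma 3.58.1), the replicate block and leaving out each library. The fit was tested on simulated data. Figures were drawn with matplotlib 3.10.9.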

Additional observations from a re-analysis of the deposited data

How the results depend on the processing

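DESeq2 called 1396 genes higher and 1548 lower, against 2152 and 2333 in edgeR, and all 2944 were among the edgeR calls in the same direction. With a log2 fold change of at least 1 it called 36 and 37, against 133 and 93. A mean of at least 5 CPM left 34 and 34 of that size, since fewer genes were tested. Leaving out 1 library at a time gave 1498 to 1704 higher and 1683 to 1807 lower genes, and 93 to 144 and 82 to 103 with a log2 fold change of at least 1. With the replicate block 2098 genes were higher and 2271 lower, and 125 and 90 by at least 1. Deviations of samples with the same number had a correlation of 0.000979 over 11535 genes. With 2 libraries per genotype this value cannot decide whether the numbers pair the samples. Using the 8-base in place of the 7-base let-7 match gave 23.8% of genes called lower against 20.7%. Of the 419 named genes 278 kept call and direction under each of the 12 alternatives that gave them a value, 141 lost the call under at least 1, and Hist1h2bp reversed, at 0.038 without WT replicate 1 and -2.59 without WT replicate 2 against -1.81 with both. Of the 50 largest changes 1, Lyz2, lost its call. Of 168 list counts by direction 80 stayed within 1.5 times under every alternative. Genes below 5 CPM had few counts, which limits their calls.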

Other observations

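Noncoding transcripts of several classes were called higher more often than lower. Of 169 tested long intergenic noncoding RNA genes 36 rose (21.3%) and 6 fell (3.55%), with a median log2 fold change of 0.19. Over all genes tested 14.7% were higher and 16% lower. Of 30 long noncoding RNA genes with a bidirectional promoter 6 rose and none fell. Of 153 genes annotated as processed transcripts 18 rose (11.8%) and 6 fell (3.92%), both shares below those over all genes. That class is not all noncoding, since the CCT chaperonin gene Cct6a is among its falls. Of 187 antisense genes 13 rose (6.95%) and 3 fell (1.60%), both shares below those over all genes. The strand setting of the counting is unknown for these genes. None of 54 small nucleolar RNA genes was called. Snhg14, the host transcript of small nucleolar RNAs in the Prader-Willi region, rose by 0.43 on the log2 scale, Terc, the RNA of telomerase, by 0.44 and Mir124a-1hg, the host of a neuronal microRNA, by 0.44. Mir17hg, the host of the miR-17 cluster, fell by 0.36.

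Gene span ran alongside the calls. Protein-coding genes were split into 4 equal groups, from the shortest to the longest genomic span. In these, 12.8%, 13.1%, 14.0% and 19.5% were called higher and 15.9%, 19.5%, 19.9% and 11.9% lower. The longest group was the only one of the 4 in which more genes were called higher than lower. The lists differed in span too. The median span was 111 kb for sodium and calcium channel genes and 319 kb for glutamate receptor genes. It was 24.2 kb for cytosolic synthetases and 12.4 kb for proteasome genes. Neuropeptide genes had a median of 7.52 kb. Of 29 tested, 6 rose (20.7%) and 1 fell (3.45%), beside 14.7% and 16% over all genes, and DESeq2 called 3 rises and 0 falls. The part of gene span in the list counts was not tested.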
